A study of Mus musculus with 6 samples.

Results

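The genes described here encode 37 proteins of the lysosome, listed by symbol: 13 lysosomal proteases (11 of them cathepsins), 8 glycosidases, 7 proteins that handle lipids, 4 membrane proteins, 2 regulators and 3 subunits of the proton pump. Each of the 37 symbols was found on 1 of the 28539 loci of the deposited table, 23889 of which carry a symbol. RNA-seq was run on polyadenylated RNA of whole corneas from female C57BL/6J mice aged 6 to 8 weeks. There were 6 samples in 3 groups of 2: corneas that had not been treated (day 0), and corneas 5 days and 15 days after an alkali burn, the later time being named a regression stage by the labels. The labels do not say if the 2 samples within a group are from different mice, or if corneas were pooled. No genetic alteration or other agent is given for any group.

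Lysosomes are acidic compartments in which proteins, sugar chains and lipids delivered by endocytosis, phagocytosis and autophagy are broken down. A proton pump in their membrane, the V-ATPase, keeps the lumen acidic, and soluble hydrolases such as the cathepsins work there. The transcription factor Tfeb and its relatives bind a short E-box element in the promoters of many lysosome genes. Macrophages are rich in lysosomes, and osteoclasts, bone-resorbing cells of the same lineage, use the pump and cathepsin K to dissolve bone.

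The deposited file gives 1 FPKM per locus and group (fragments scaled to transcript length and sequencing depth), computed over both samples of the group, with the lower and upper bound of an interval. Ranges in parentheses below are those bounds, whose confidence level is not stated. Values of single samples are not given, so the spread between replicates is unknown and nothing could be tested. The number of reads behind a value is unknown too. A locus is called apart between 2 groups when their intervals do not overlap, the log2 ratio of (FPKM + 1) is 1 or more in size, and the larger FPKM reaches 1. "Rose" and "fell" are used only for such loci. Intervals were wide: in members at FPKM 5 or above they reached a median of 48.3% to either side of the value on day 0, and 46.2% and 46.1% in the injured groups. For 14 of the 37 genes the locus is uncertain, as it names or overlaps another gene or is much longer than the annotated one; beside those noted below these are Ctsb, Ctsd, Ctsl, Hexa, Npc1, Ppt1 and Lamp1. None of the genes called apart is among the 14. A whole-cornea FPKM cannot tell more cells of a type from more RNA per cell.

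Relative to day 0, few lysosome genes stood apart, and none of those was lower. Ctss, Ctsk and Atp6v0d2 rose at day 5, and Ctss, Ctsc and Atp6v0d2 rose at day 15. Thus 3 of the 36 members with an FPKM of at least 1 in either group (8.33%) were higher and apart at day 5, where 3.42% of all 15576 loci tested were. At day 15 the count was again 3 of 36, against 2.91% of 15186 loci. None of the 36 was lower and apart at either time, while 2.5% (day 5) and 1.81% (day 15) of all loci were. Between day 5 and day 15 no member was apart in either direction, against 0.395% of 14683 loci higher and 0.388% lower. These counts rest on few genes, and 2 of the calls have bounds that almost touch, as given below. The members were chosen with earlier results of these data known, which limits every comparison with all loci or other pathway genes.

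Most other members had slightly higher values after the burn. At day 5, 27 of 36 members had a higher value than at day 0, and the median log2 ratio was 0.39, beside 44.9% of all loci and a median of -0.09. At day 15, 28 of 36 were higher, with a median of 0.48, beside 43.1% and -0.10 for all loci. From day 5 to day 15 the members' median was 0.12 and that of all loci -0.01. Without regard to the intervals, 8 members had a log2 ratio of (FPKM + 1) of at least 1 at day 5 and 7 at day 15, which is 22.2% and 19.4% of those tested. Over all loci the same shares were 10.8% and 8.36%. On that scale only Ctsf was as far below day 0, at day 5. In 19 of the 37 genes the FPKM was lowest at day 0 and highest at day 15, and 15 genes stayed within 1.5-fold over all groups. The 3 intervals had a common overlap in 33 of 37 genes. These counts over the 3 groups were made for the members only, so they cannot be set beside all loci.

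**Figure D1:**
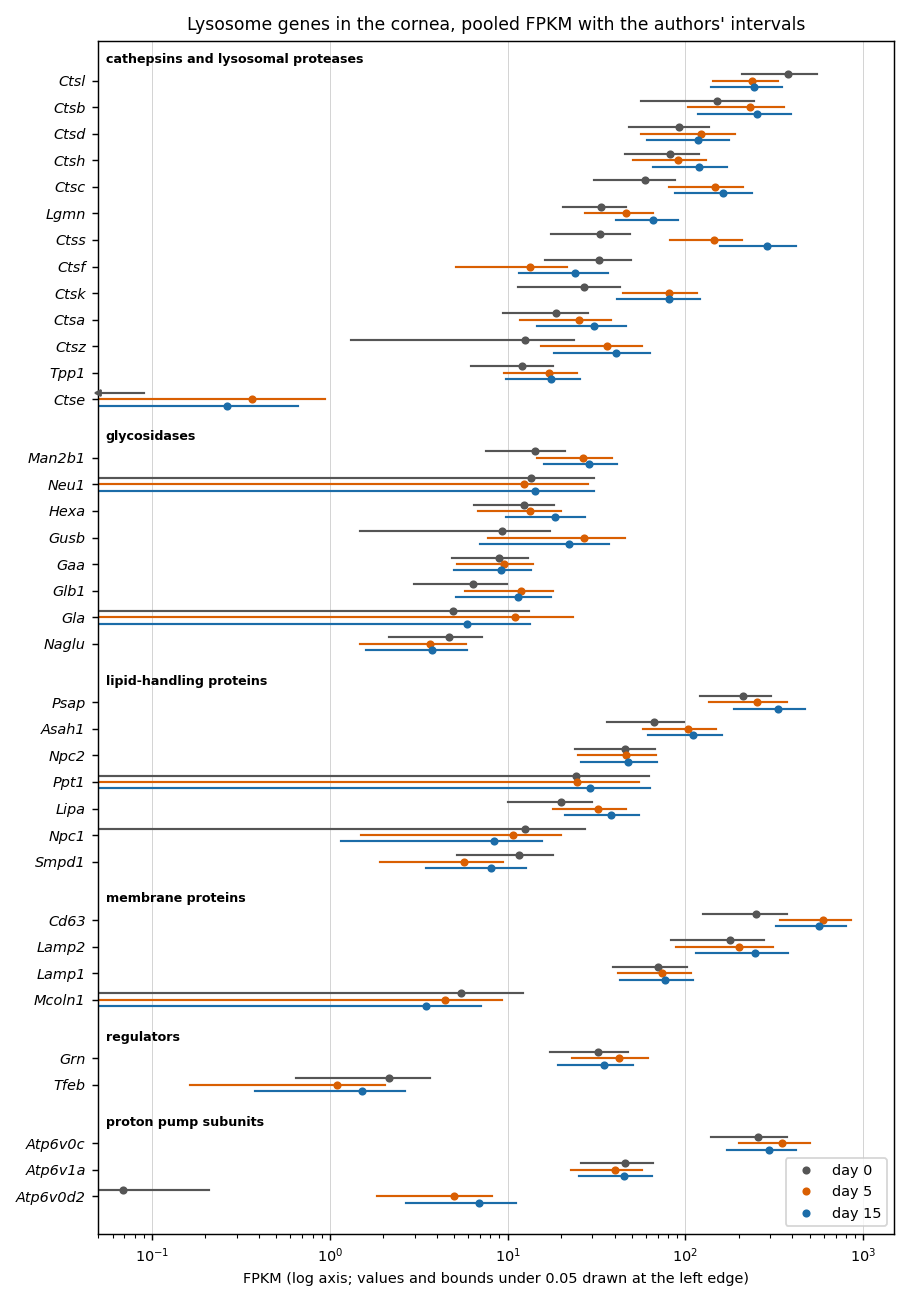
FPKM (log axis) of the 37 lysosome genes at day 0, day 5 and day 15, by role. Points are the values pooled over the 2 samples of a group and lines the authors' intervals; values and bounds under 0.05 lie at the left edge, and the intervals separate from day 0 only for Ctss, Ctsk, Ctsc and Atp6v0d2.

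Calls among the proteases were for Ctss, Ctsk and Ctsc. Of the 13 proteases, 12 reached an FPKM of 1, 10 of these had a higher value at day 5 and 10 at day 15, and their median log2 ratios were 0.46 and 0.72. Ctss encodes cathepsin S, a cysteine protease of antigen-presenting cells that cleaves the invariant chain of MHC class II and keeps its activity at neutral pH. Its locus spans the whole annotated gene (chromosome 3, 95526786 to 95556405 on mm10). Ctss had an FPKM of 33.0 (17.5 to 48.6) at day 0, 145 (81.7 to 207) at day 5 and 288 (157 to 418) at day 15. Both injured groups lay above the day 0 interval, and day 15 was the higher of the 2. The rise was 4.38-fold at day 5 and 8.71-fold at day 15, with log2 ratios of 2.097 and 3.08. From day 5 to day 15 the value was 1.99-fold higher (log2 ratio 0.99), but the intervals overlapped and the locus was not apart.

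Ctsk encodes cathepsin K, a collagen-degrading protease best known from osteoclasts. It is the neighbour of Ctss (chromosome 3, 95499210 to 95509387), with 17398 bases between the loci. Its FPKM was 27.0 (11.4 to 42.7) at day 0, 80.4 (44.5 to 116) at day 5 and 81.4 (41.4 to 121) at day 15. The injured groups were almost equal, yet only day 5 was apart from day 0, since the lower bound at day 15 lay just inside the day 0 interval. At day 5 the nearest bounds differed by a factor of 1.04. The folds were 2.97 and 3.01.

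Ctsc encodes cathepsin C, a dipeptidyl peptidase that activates the serine proteases of neutrophils and mast cells. On chromosome 7 (88278037 to 88312463), it stood at 59.0 (30.7 to 87.4), 146 (81.2 to 211) and 163 (87.9 to 238). In contrast to Ctsk, the day 15 value was apart from day 0 and the day 5 value was not, with nearest bounds at day 15 that differed by a factor of only 1.01. Its folds over day 0 were 2.47 at day 5 and 2.76 at day 15. Ctsz, a carboxypeptidase also called cathepsin X, had 12.5 (1.32 to 23.7), 36.4 (15.4 to 57.4) and 40.7 (18.3 to 63.1). That is 2.92-fold and 3.26-fold higher, as large as for Ctsk, but its intervals overlapped, and its locus covers 2.01 times the annotated gene and shares exons with Nelfcd on the other strand.

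Ctsl, Ctsf, Ctsb, Ctsh and Ctsd were not apart at either time. Ctsl, a general lysosomal endopeptidase, was the most abundant cathepsin at day 0, at 380.0 (209 to 551), and stood at 238 (144 to 333) and 243 (139 to 348) later. Ctsf, another cysteine cathepsin, went from 32.9 (16.2 to 49.6) to 13.4 (5.15 to 21.7) and then 24.0 (11.5 to 36.5). These were the proteases with a lower value than at day 0. Ctsb, a cysteine protease that also trims peptides, had 150.2 (56.4 to 244), 232 (104 to 359.5) and 254 (118 to 391). For Ctsh, an aminopeptidase, the values were 82.3 (45.7 to 119), 91.2 (51.0 to 131) and 119 (65.8 to 172). The aspartic protease gene Ctsd was at 91.8 (48.1 to 136), 123 (56.1 to 189) and 118 (60.8 to 175). All 3 overlapped throughout, with day 15 values between 1.29-fold and 1.69-fold of day 0.

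Ctse, the aspartic protease of gastric and immune cells, was barely detected, at 0.0230, 0.365 and 0.264, and is the member that passed no FPKM minimum. Ctsa encodes the carboxypeptidase that also protects beta-galactosidase and neuraminidase in the lysosome. It was at 18.8 (9.41 to 28.2), 25.1 (11.8 to 38.4) and 30.7 (14.7 to 46.7), on a locus of 3.31 times the gene's span. Lgmn, the asparaginyl endopeptidase that processes cathepsins to their mature forms, had 33.5 (20.6 to 46.3), 46.5 (27.3 to 65.7) and 66.0 (40.8 to 91.1). Its day 15 value was 1.97-fold that of day 0, with bounds that overlapped. Tpp1, a tripeptidyl peptidase, was at 12.1, 17.0 and 17.6, a difference of 1.45-fold at day 15, not apart.

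FPKM is scaled to transcript length, so levels of different genes can be set side by side. The order of the cathepsins differed between the groups. At day 0 Ctsl made up 42.8% of the summed FPKM of the 11 genes and Ctss 3.72%, the sixth in order and level with Ctsf. At day 5 Ctsl (21.1%) and Ctsb (20.5%) were level, followed by Ctsc (12.9%) and Ctss (12.8%). By day 15 Ctss came first with 21.1%, ahead of Ctsb (18.7%) and Ctsl (17.9%), and the intervals of these 3 overlapped. The ratio of Ctss to Ctsl was 0.0870 at day 0, 0.607 at day 5 and 1.18 at day 15. Summed over the 11 genes, FPKM came to 888, 1130.1 and 1362 in the 3 groups, values without an error of their own.

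**Figure D2:**
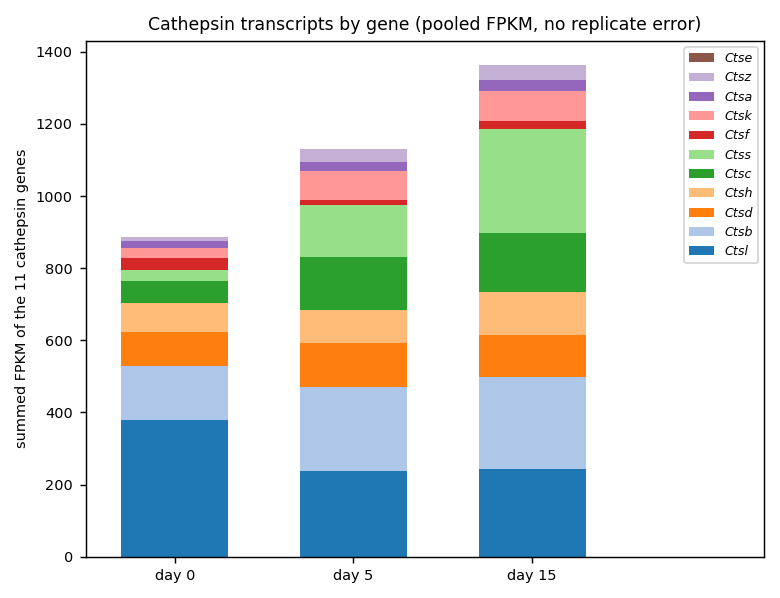
Summed FPKM (linear axis) of the 11 cathepsin genes at day 0, day 5 and day 15, stacked by gene from the most abundant at day 0 upward, with no error bars because the values are pooled. Ctsl holds 42.8% of the sum at day 0 and 17.9% at day 15, and Ctss 3.72% and 21.1%.

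Promoter sequence was at hand for 31 of the 37 genes in the RefSeq table (GRCm38.p6), as windows of 300 bases from 250 before to 50 after a start site. The E-box CACGTG, the core of the element bound by the Tfeb family, was searched with its extended form TCACGTGA, which contains it; both read the same on either strand. CACGTG occurred in a window of 12 of the 31 genes (38.7%) and of 8.09% of all 27025 genes in the table. TCACGTGA occurred in 5 of the 31 (16.1%), namely Atp6v1a, Ctsa, Ctsd, Gla and Mcoln1, and in 1.12% of all genes. A match describes the letters only and is not evidence of binding. Ctss, Ctsk and Ctsc, which rose, had no CACGTG in the window, and no window was in the table for Atp6v0d2. The 250 bases before the start site are shown for these 3 genes, and for Lamp1, Ctsd and Mcoln1 as members with several matches, with CACGTG in capitals:

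Ctss, chr3:95526536-95526785, plus strand: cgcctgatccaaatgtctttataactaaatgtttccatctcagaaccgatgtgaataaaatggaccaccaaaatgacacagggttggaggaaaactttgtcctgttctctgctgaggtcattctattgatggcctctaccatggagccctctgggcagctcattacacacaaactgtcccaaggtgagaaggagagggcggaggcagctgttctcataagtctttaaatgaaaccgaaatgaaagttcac

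Ctsk, chr3:95498960-95499209, plus strand: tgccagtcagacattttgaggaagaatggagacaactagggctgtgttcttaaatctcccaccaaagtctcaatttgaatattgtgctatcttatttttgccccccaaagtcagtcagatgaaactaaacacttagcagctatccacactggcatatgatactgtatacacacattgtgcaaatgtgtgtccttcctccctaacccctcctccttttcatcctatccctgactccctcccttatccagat

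Ctsc, chr7:88277835-88278084, plus strand: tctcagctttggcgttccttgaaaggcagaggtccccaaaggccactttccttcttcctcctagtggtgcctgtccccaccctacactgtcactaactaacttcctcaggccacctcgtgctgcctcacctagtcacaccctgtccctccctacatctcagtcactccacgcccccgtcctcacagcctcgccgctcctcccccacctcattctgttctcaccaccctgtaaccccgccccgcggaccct

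Lamp1, chr8:13158911-13159160, plus strand: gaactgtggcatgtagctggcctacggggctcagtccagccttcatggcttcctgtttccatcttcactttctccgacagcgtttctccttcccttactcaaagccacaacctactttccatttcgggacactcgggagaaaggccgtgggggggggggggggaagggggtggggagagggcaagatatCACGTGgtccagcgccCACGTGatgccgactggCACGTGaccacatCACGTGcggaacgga

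Ctsd, chr7:142387828-142388077, minus strand: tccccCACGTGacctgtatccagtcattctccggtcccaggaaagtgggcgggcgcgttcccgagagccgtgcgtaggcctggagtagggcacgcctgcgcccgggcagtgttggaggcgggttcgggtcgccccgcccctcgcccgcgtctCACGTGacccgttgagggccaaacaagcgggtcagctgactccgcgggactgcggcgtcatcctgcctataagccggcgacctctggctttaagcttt

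Mcoln1, chr8:3500269-3500518, plus strand: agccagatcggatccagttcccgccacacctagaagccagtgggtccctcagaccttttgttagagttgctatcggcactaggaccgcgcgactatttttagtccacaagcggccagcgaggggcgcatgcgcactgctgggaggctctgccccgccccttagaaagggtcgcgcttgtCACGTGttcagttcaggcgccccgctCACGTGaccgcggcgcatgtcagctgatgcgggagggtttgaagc

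Lamp1 has 4 matches within the last 61 bases before its start site, and Ctsd and Mcoln1 have 2 each. Gla, not shown, has 2 as well, both in the extended form TCACGTGA. Ctsa, also not shown, has 2 in a window. The 12 members with CACGTG had a median log2 ratio of 0.08 at day 5 and 0.08 at day 15, and none was apart. Of the 19 members with a window and no CACGTG, 2 were higher and apart at each time, beside 3.42% and 2.91% of all loci tested. The medians of the 19 were 0.46 and 0.55. The 2 groups overlapped widely, from -1.23 to 1.02 with the E-box and from -0.91 to 2.097 without it at day 5. These are descriptions of few genes, and the difference between them was not tested.

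Tfeb itself, the master regulator of lysosome genes, had a low FPKM: 2.15 (0.645 to 3.65) in uninjured corneas, 1.102 (0.163 to 2.04) on day 5 and 1.51 (0.379 to 2.65) on day 15. All intervals overlapped, and both values after the burn were below that of day 0. Its relative Tfe3 was at 7.53 (3.21 to 11.9), 11.6 (5.51 to 17.7) and 8.05 (3.41 to 12.7), Mitf at 2.30, 1.86 and 3.10, and Tfec, a family member of macrophages and osteoclasts, at 0.0273, 0.462 and 0.889. None of these was apart. Grn encodes progranulin, a secreted protein that is taken up into lysosomes and cut into granulins there. It stood at 32.4 (17.3 to 47.6), 42.4 (23.1 to 61.7) and 34.9 (19.3 to 50.5) with overlapping bounds; its locus covers 2.58 times the gene's span.

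Among the pump subunits, one tissue-restricted gene rose while the common ones did not. Atp6v0d2 encodes the d2 subunit of the membrane sector, found mainly in osteoclasts, macrophages and kidney. On chromosome 4 (19876838 to 19922566), its FPKM was 0.0683 (0 to 0.208) at day 0, 5.00 (1.84 to 8.15) at day 5 and 6.95 (2.70 to 11.2) at day 15. The injured groups did not overlap with day 0, and their lower bounds were 8.85 and 13.0 times its upper bound. The ratios of FPKM, 73.1 and 102, rest on a value near 0 and are imprecise; the log2 ratios of (FPKM + 1) were 2.49 and 2.89. At a level this low the day 5 call depends on the settings: with a pseudocount of 5 in place of 1 the log2 ratio was 0.98, below the threshold. Its widely expressed counterpart, the d1 subunit gene Atp6v0d1, was at 74.7 (40.0 to 109), 56.9 (29.6 to 84.2) and 71.1 (37.9 to 104), so that d1 remained the more abundant form in every group. Atp6v1a, the catalytic subunit A, stood at 45.9, 40.0 and 45.2, within 1.15-fold. Atp6v0c, which forms the proton-carrying ring, was at 256, 351 and 297, on a locus merged with Amdhd2.

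The 22 other pump genes gave a similar picture, with none higher and apart. Of the 18 tested at day 5, 1 (5.56%) was lower and apart, against 2.5% of all loci. It was Atp6v1e1, a stalk subunit, at 85.1 (47.1 to 123), 30.0 (15.7 to 44.4) and 45.1 (24.3 to 65.9). Their median log2 ratio was -0.19 at day 5 and 0.19 at day 15. Tcirg1, the a3 subunit of osteoclasts and macrophages, was at 5.98 (2.27 to 9.69), 16.4 (7.99 to 24.9) and 12.1 (5.59 to 18.6), with overlapping intervals.

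None of the 4 membrane proteins was apart in any comparison. Over all loci only 3.42% were higher and apart at day 5 and 2.91% at day 15. The absence of calls in so small a set therefore says little. The same holds for the other small lists below in which none was apart. Cd63, a tetraspanin of late endosomes, lysosomes and exosomes (chromosome 10, 128908919 to 128912822), was the most abundant member in both injured groups. It had 249.9 (126 to 374) at day 0, 597 (340.2 to 855) at day 5 and 562 (323 to 801) at day 15. That is 2.39-fold and 2.25-fold higher, and the bounds overlapped at both times. Lamp1 and Lamp2 encode the main glycoproteins that line the lysosomal membrane. Lamp1 stood at 70.5 (39.1 to 102), 74.4 (41.6 to 107) and 76.5 (43.1 to 110), and Lamp2 at 179.5 (83.2 to 276), 200.1 (88.8 to 311) and 247 (115 to 380). Neither differed by 1.5-fold. Mcoln1, a calcium release channel of lysosomes, was at 5.45 (0 to 12.2), 4.45 (0 to 9.32) and 3.497 (0 to 7.11), on a locus shared with Pnpla6.

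None of the 8 glycosidases, which strip sugars from glycoproteins, glycolipids and glycosaminoglycans, was apart. Their median log2 ratio was 0.45 at day 5 and 0.39 at day 15, with 6 and 7 of 8 higher in value. Gusb, beta-glucuronidase, had the largest fold, from 9.36 (1.47 to 17.2) to 26.9 (7.81 to 46.0) and 22.2 (6.999 to 37.4). Man2b1, the alpha-mannosidase, was at 14.2 (7.52 to 20.9), 26.6 (14.6 to 38.7) and 28.7 (16.1 to 41.3). Both were about 2-fold or more above day 0 at day 15 (2.37-fold and 2.01-fold), within overlapping bounds. Glb1, the beta-galactosidase, stood at 6.43, 11.9 and 11.4 on a locus shared with Tmppe. Gla, alpha-galactosidase A, was at 4.92, 10.99 and 5.95 with a lower bound of 0 in each group. The others showed no more than a 1.5-fold difference: Hexa (12.4, 13.4 and 18.6), Gaa (8.99, 9.59 and 9.24), Neu1 (13.6, 12.3 and 14.2) and Naglu (4.68, 3.67 and 3.77). Their products act on gangliosides, glycogen, sialic acids and heparan sulfate.

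Of the 7 lipid-handling genes none was apart either, with medians of 0.02 and 0.25. Psap, the precursor of the saposins that present sphingolipids to their hydrolases, was the most abundant, at 212 (120.3 to 303), 254 (136 to 372) and 330.4 (188 to 473). Lipa, the acid lipase that frees cholesterol from its esters, had 19.9 (10.03 to 29.8), 32.1 (17.9 to 46.3) and 38.0 (20.9 to 55.1). Asah1, the acid ceramidase, was at 67.0 (36.3 to 97.7), 103 (58.2 to 148) and 111 (61.8 to 160.0). These 3 had their highest value at day 15, 1.56-fold to 1.91-fold of day 0. Smpd1, the acid sphingomyelinase that makes the ceramide, was not apart, at 11.6 (5.20 to 17.9), 5.70 (1.93 to 9.47) and 8.11 (3.496 to 12.7), on a locus of 6.77 times the gene's span. The cholesterol exporters Npc1 (12.6, 10.7 and 8.40) and Npc2 (45.8, 46.6 and 47.7) and the thioesterase gene Ppt1 (24.3, 24.6 and 29.0) were within 1.5-fold.

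**Figure D3:**
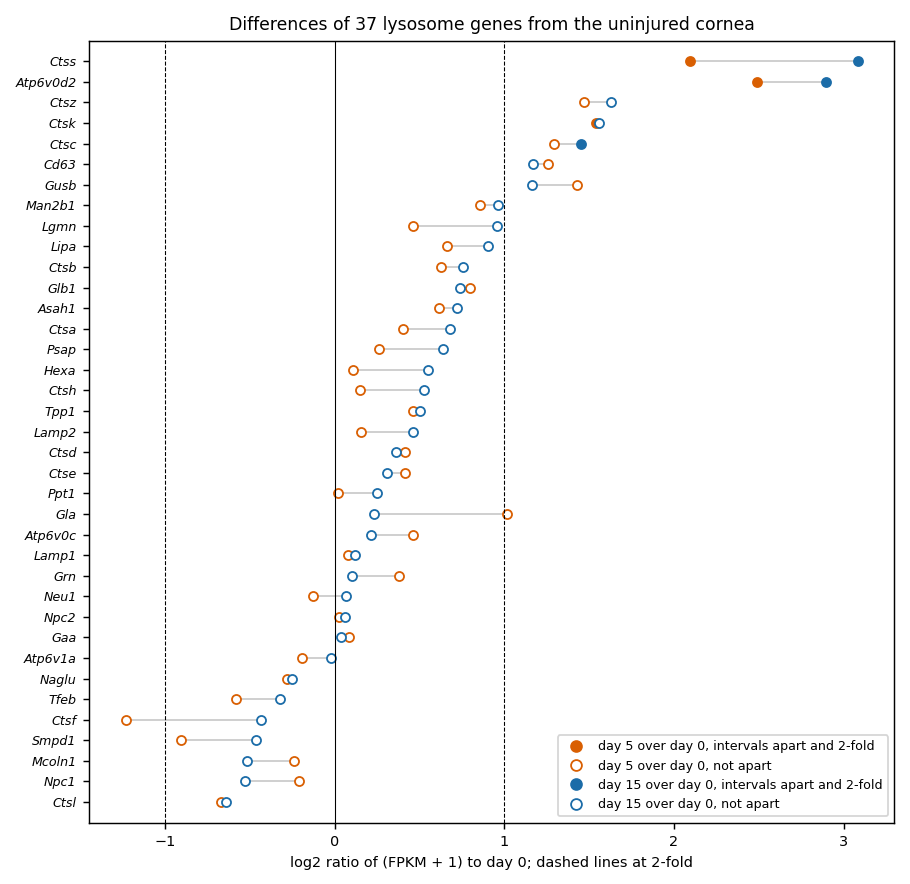
Log2 ratio of (FPKM + 1) to day 0 for each of the 37 lysosome genes, at day 5 and at day 15, ordered by the day 15 ratio; filled points are loci called apart. Ctss and Atp6v0d2 lie past 2 at both times, whereas Ctsl, Ctsf and Smpd1 lie left of 0.

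Other genes of the pathway were read in the same way. Of 144 further genes of lysosomal enzymes, membranes, pump, enzyme sorting, nutrient sensing, autophagy and protease inhibitors, 131 loci could be tested at each time against day 0. At day 5, 2 were higher and 2 lower and apart, which is 1.53% each, against 3.42% and 2.5% of all loci. Of the 131, 52 had the higher value, and the median log2 ratio was -0.16. At day 15 the counts were 2 and 0, or 1.53% and 0%, against 2.91% and 1.81% of all loci. The median at day 15 was -0.02. From day 5 to day 15, 2 of 128 (1.56%) were higher and apart, against 0.395% of all loci. The 31 other hydrolases tested had medians of -0.17 and -0.07. Ggh, a hydrolase of folate polyglutamates, rose at day 15, from 62.6 (31.0 to 94.2) to 210 (119.8 to 299.7), and had been at 71.6 (38.0 to 105) at day 5.

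**Figure D4:**
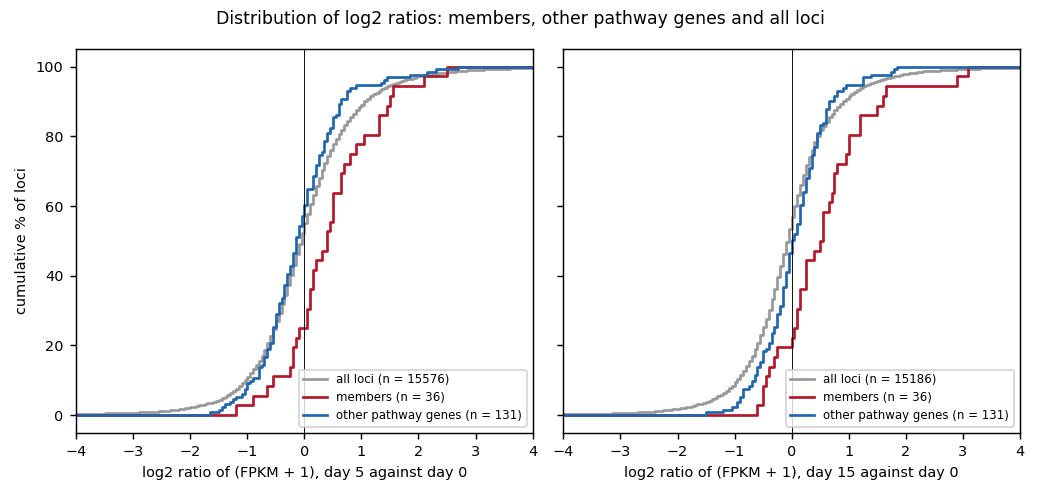
Cumulative share (%) of loci by log2 ratio of (FPKM + 1), for day 5 and day 15 against day 0, over the 36 members tested, 131 loci of other pathway genes and all loci tested. The medians are 0.39 and 0.48 for the members, -0.16 and -0.02 for the other pathway genes, and -0.09 and -0.10 for all loci. Members and lists were chosen with earlier results of these data known.

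Among lysosomal membrane genes outside the 37, Laptm5, a protein of blood-derived cells, rose at both times, from 3.23 (1.11 to 5.34) to 17.6 (9.35 to 25.8) and 13.8 (7.06 to 20.5). Slc11a1, a metal transporter of phagosomes, rose at day 5, from 1.37 (0 to 2.74) to 10.3 (3.16 to 17.4), and was at 7.05 (2.39 to 11.7) at day 15. Both are known from macrophages and other leukocytes. Laptm4a, a widely expressed relative of Laptm5, stood at 914 (479.5 to 1349), 619 (342 to 895) and 878 (435 to 1321). None of 12 sorting genes was apart, among them M6pr, a mannose 6-phosphate receptor, at 134, 189 and 172, and the adaptor gene Ap3b1 at 35.1, 23.7 and 27.2. None of the 18 tested loci for nutrient sensing at the lysosome was apart, with Lamtor2 at 267, 203 and 278 and Lamtor5 at 103, 82.4 and 102. The same held for 19 autophagy loci, of which Map1lc3b, the membrane tag of autophagosomes, was at 137, 166 and 209.7, and Gabarap at 71.4, 79.4 and 101. Their medians were -0.15, -0.25 and -0.08 at day 5 and -0.24, -0.10 and 0.12 at day 15.

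Cystatins and stefins are the natural inhibitors of cysteine cathepsins, and some were far more abundant than the enzymes. BC100530, a stefin A gene of a family of near-identical copies, was at 2101 (1178 to 3025), 2636 (1440 to 3833) and 4935 (2547 to 7323), and how reads were shared among the copies is not known. Cstb, the cytosolic cystatin B, had 475 (259 to 692), 779 (433 to 1125) and 743 (414 to 1071). Cst3, the secreted cystatin C, hardly differed, at 63.0 (36.1 to 89.9), 62.6 (34.6 to 90.6) and 74.1 (41.5 to 107). Cst6, an epithelial cystatin that inhibits cathepsins L and V and legumain, fell at day 5, from 6.21 (3.13 to 9.28) to 1.72 (0.542 to 2.89), and was at 2.997 (1.29 to 4.71) at day 15. Csta1, another stefin A, was at 31.5 (17.0 to 45.9), 16.1 (8.37 to 23.9) and 53.0 (28.9 to 77.0), and rose between day 5 and day 15. Of the 9 inhibitor loci tested at day 5, 1 (11.1%) was lower and apart, against 2.5% of all loci. Of 8 at day 15 none was apart.

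Markers of other cells moved in the same samples. The counts for these lists stand beside 3.42% of all loci higher and 2.5% lower and apart at day 5. At day 15 these shares were 2.91% and 1.81%, and between day 5 and day 15 they were 0.395% and 0.388%. Of 19 macrophage loci, 5 stood higher and apart on day 5 and 9 on day 15, with median log2 ratios of 1.16 and 1.84, and none was lower and apart. Their summed FPKM was 775 at day 0, 1360 at day 5 and 1745 at day 15. Without the merged Cd68 locus it was 196, 774 and 1186. Sums of the marker lists below include merged loci. No macrophage marker was listed at 0. Lyz2, the macrophage and neutrophil lysozyme, was at 68.3 (23.9 to 113), 385 (216 to 553) and 685 (381 to 988), and C1qb, a complement subunit made by macrophages, at 28.1, 96.2 and 182. Between day 5 and day 15 the list was mixed, with 13 of 19 loci higher in value and 6 lower, of which Cd14, a receptor for bacterial lipopolysaccharide, was lower and apart. The part of macrophages in the values of Ctss, Ctsk, Ctsc and Atp6v0d2 was not tested.

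Most neutrophil markers were higher in value at day 5 as well. Of 10 loci tested at day 5, 6 were higher and apart and none was lower and apart. Only Padi4 had gone down, from 15.8 (7.50 to 24.1) to 5.03 (2.37 to 7.69), with overlapping bounds. Of 7 loci tested at day 15, 4 were higher and apart, and Padi4 fell, to 2.78 (1.16 to 4.39). From day 5 to day 15 the FPKM of all 10 tested loci declined, and S100a9 was apart. The summed FPKM of the list was 53.8 at day 0, 1661 at day 5 and 869.5 at day 15. Most of it came from Ltf, the lactoferrin gene, which glandular epithelium also expresses, at 1243 on day 5, and from S100a9 (242) and S100a8 (140.3). The granule genes Elane (listed at 0 in all groups) and Mpo (0.0194 at day 5 and listed at 0 otherwise) are made in bone marrow precursors. Mast cell markers had sums of 30.7, 23.7 and 15.8, with none of 5 tested loci apart at either time. At day 5, 4 of the 5 had a higher value than at day 0 and 1 a lower one, with a log2 ratio of -3.68. At day 15, 2 were higher and 3 lower in value. Mrgprb2 was listed at 0 at day 0. The part of these cells was not tested.

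Osteoclast genes include Ctsk and Atp6v0d2, so the others of that programme were set beside them. Of 6 loci tested at day 5, 2 were higher and apart, Mmp9 and Itgb3, and 1 at day 15, Mmp9. Mmp9, a gelatinase, was at 0.176 (0 to 0.369), 8.30 (4.19 to 12.4) and 3.59 (1.57 to 5.60). Acp5, the tartrate-resistant phosphatase, stood at 23.8 (0 to 65.5), 66.1 (0 to 136) and 56.4 (0 to 120), too wide to call. Nfatc1, the factor that drives osteoclast formation, was at 1.99, 3.28 and 2.66. Calcr, the calcitonin receptor that marks mature osteoclasts, did not exceed 0.0219, Dcstamp, a cell fusion gene, 0.832, and Oscar 0.344. The sum of the 9 loci was 28.0, 87.1 and 68.8.

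Tissue of the cornea and its surroundings differed between groups as well. Corneal epithelial markers summed to 12085, 1864 and 3192, with Krt12 at day 0 listed at 0 under a status of too many fragments, and the largest share from Aldh3a1, at 9149.9 (998 to 17302) on day 0. Of 10 epithelial markers tested, 3 were lower and apart at day 5 and 1 at day 15. Higher values than at day 0 were seen for 3 of the 10 at day 5 and 4 at day 15. Keratocyte markers summed to 5375, 2999 and 4105. Of 9 tested, 4 were lower and apart at day 5 and 3 at day 15. Another 4 and 3 of the 9 had a higher value than at day 0. For blood endothelial markers the sums were 23.6, 86.9 and 91.2, with 5 of 10 higher and apart at each time, and for conjunctival and goblet cell markers 1732, 4037 and 10330, with 4 and 6 of 8. Pigment cells hold melanosomes, which are related to lysosomes and carry Cd63. Their 7 markers summed to 365, 85.4 and 250.5, all 7 lower in value at day 5 and 1 apart. Lens markers summed to 331, 30.3 and 220.1. Of 8 tested, 5 were lower and apart at day 5 and none at day 15. From day 5 to day 15, 4 of 6 were higher and apart. Skeletal muscle markers summed to 694, 402 and 97.4. At day 15 all 8 tested were lower in value than at day 0, and 2 of them were apart. The part of these tissues in the lysosome gene values was not tested.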

How the data were processed

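Polyadenylated RNA of whole mouse corneas was sequenced in 6 samples, 2 per group, grouped by their titles. Per the submitters' processing notes, Bowtie2 2.2.6, TopHat2 2.1.0, Cuffdiff and Cufflinks 2.2.1 were used with the mm10 build; the annotation and strandedness are not given in the sources used here. The authors deposited FPKM values with interval bounds and a status, 1 set per group pooled over its samples, per the file headers. There were 0 columns for single samples, so depth is unknown, and log2 ratios of (FPKM + 1) and interval overlap were used in place of the planned limma fit. The pseudocount of 1 understates differences of low genes; folds are plain ratios of FPKM. A member's locus was found by its symbol; all 37 overlapped the GENCODE M21 gene, and 14 are uncertain because the locus names several genes (3), spans over 2 times the gene (8) or shares exons with another gene (11). Strand of counting is not known, so reads of overlapping genes cannot be told apart. Locus starts were converted to 1-based positions.

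The members and lists were chosen with earlier results of these data known. All members are named; of each pathway list the genes apart, or otherwise the 2 most abundant, and of marker lists up to 3 of the most abundant and those near 0. Itgb3, Atp6v0d1, Tcirg1, Tfe3, Mitf, Tfec, Laptm4a, BC100530, Cstb and Cst3 were added after their values were seen. Of the list genes, Rnaset2a and Ly6g matched no symbol. The code of the call rule was run on simulated data, and how the rule behaves under the spread between replicates was not tested. Alternatives varied the pseudocount, the FPKM minimum, whether intervals were used, the fold, group scaling and merged loci. Python 3.11.15, numpy 2.4.6, pandas 2.3.3 and matplotlib 3.10.9 were used.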

Additional observations from a re-analysis of the deposited data

How the results depend on the processing

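No paired analysis was possible because the deposited columns are pooled over the samples of a group; for the same reason no sample could be left out. The counts of members apart moved by more than 1.5 times only when the intervals were not used: 8 were then higher and 1 lower at day 5, and 7 higher at day 15, and of the other pathway genes 19, 10 and 7 differed for day 5 against day 0, day 15 against day 0 and day 15 against day 5. Under the other 8 planned settings, and without the 14 members on uncertain loci (an alternative chosen after seeing the data), these counts were within 1.5 times those reported; the members' counts differed under 3 of them, with 2 higher at day 5 for a pseudocount or an FPKM minimum of 5 and 4 higher at day 15 after rescaling. The members' median log2 ratio ranged from 0.34 to 0.49 at day 5 and from 0.42 to 0.58 at day 15. Rescaling the groups moved the median of all loci at day 5 from -0.09 to 0.01 and made Ctsk apart at day 15 too (log2 ratio 1.62). It also turned the sign of 5 small ratios, all under 0.05 in size after rescaling. Atp6v0d2 at day 5 was lost with a pseudocount of 5 (0.98) and with an FPKM minimum of 5. Interval width limits the data: at most differences under 2-fold, and at many larger ones, the intervals overlapped. Overlap is not a test of a difference, so it does not show that a difference is absent. Over all loci, 1687 were called higher at day 5 than at day 0 when the intervals were not used, against 533 when they were.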
